A study of Mus musculus with 8 samples.

Results

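The genes described are 10 transcription factors and cofactors of the GATA, TAL1 and Gfi1b network, chosen by name, among 52459 gene rows: Gata1, Gata2, Tal1, Lmo2, Ldb1, Zfpm1, Gfi1b, Klf1, Nfe2 and Mitf. They were measured by RNA-seq in 8 libraries, each from leukaemia cells of the spleen of 1 moribund mouse. The leukaemia was started in cKit+ marrow cells of C57BL/6J mice with a retrovirus that carries AE9a, a truncated RUNX1-RUNX1T1 fusion protein. The cells also hold a hairpin against Tet2 that doxycycline switches on (genotype label RTA shTet2). All 8 libraries therefore carry AE9a and the hairpin, and all recipients also received wild-type support marrow, so normal blood cells could also be present in the spleen; the cells taken are labelled AE9a+.

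The comparison group, called knockdown here, was 3 secondary recipients (mice 16, 17 and 19) on doxycycline that received PBS. In 2 further secondary recipients (mice 21 and 23), which carry the label Tet2 restored, doxycycline was absent and PBS was the treatment, and 2 more (mice 28 and 30) had doxycycline together with ascorbate. A single primary recipient on doxycycline (mouse 12), a lethally irradiated mouse transplanted at 6 to 8 weeks of age, has no replicate. The labels give neither the age of the secondary recipients nor whether they received cells of the same primary leukaemia, so p-values measure the spread between these mice. Doxycycline withdrawal and the Tet2-restored label coincide, and their effects cannot be told apart.

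In blood formation, GATA1 and GATA2 bind DNA through zinc fingers, and TAL1, a helix-loop-helix protein, joins them in a complex that LMO2 and LDB1 bridge. The cofactor FOG1, the product of Zfpm1, binds GATA factors, while GFI1B is a repressor that recruits the histone demethylase LSD1. Together with KLF1 and NF-E2 these proteins drive erythroid and megakaryocytic genes, whereas GATA2 and MITF are factors of mast cells, and GATA2 gives way to GATA1 as erythroid precursors mature.

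Library totals ran from 18136978 to 34197877 counts, and mitochondrial genes took 5.16% to 17.1% of counts, most in mouse 28 (17.1%) and mouse 23 (14.5%). Tet2, the hairpin's target, was at 12.6, 12.8 and 13.4 CPM (counts scaled to library size) in mice 16, 17 and 19, at 14.1 CPM in mouse 21 and at 23.1 CPM in mouse 23. Of the libraries labelled Tet2 restored, that of mouse 21 was thus only slightly above the knockdown mice, close to the ascorbate library of mouse 28 (13.8 CPM); mouse 30 had 11.7 CPM and mouse 12 had 9.26 CPM. The label of the cells was checked with genes picked after their values had been seen. Runx1t1, part of the AE9a fusion, was between 12.6 and 37.8 FPKM (the length-scaled unit of fragments per kilobase of transcript and sequencing depth) in the 8 libraries. The pan-leukocyte antigen Ptprc was near 0, at 0.09 to 0.53 FPKM. Granulocytic genes were low as well, with myeloperoxidase (Mpo) at 0.02 to 1.86, the elastase Elane at 0 to 0.67 and the granulocyte factor Cebpa at 0.05 to 0.24. Some erythroid genes were high, such as the ammonium channel Rhag at 131 to 254 FPKM and carbonic anhydrase 1 (Car1) at 1337 to 2755. Other erythroid markers were low, such as Epb42 at 1.72 to 15.4 CPM and Trim10 at 1.39 to 8.80 CPM. The 4 adult globin genes took 0.349% to 1.17% of counts.

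Per transcript length, 8 of the 10 factors were abundant in each library. The 9628 genes with a mean of at least 1 FPKM had a median of 10.01 FPKM, and all members except Gata2 and Mitf lay at or above the 80.2nd percentile of these genes in all 8 libraries. In the knockdown mice the order by mean FPKM was Gfi1b (235 ± 5.41, SD, n = 3), Klf1 (159 ± 11.3), Gata1 (110 ± 10.2), Ldb1 (98.9 ± 11.4), Lmo2 (95.04 ± 15.3), Nfe2 (94.96 ± 17.7), Tal1 (75.6 ± 11.7), Zfpm1 (53.8 ± 10.6), Gata2 (3.35 ± 1.30) and Mitf (0.0133 ± 0.0153). Gfi1b, Klf1 and Gata1 did not overlap with each other, whereas from Gata1 to Tal1 each gene overlapped with the next in this order. Tal1 and Zfpm1 were again separate, and Gata2 stood 16.0-fold below Zfpm1.

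**Figure D1:**
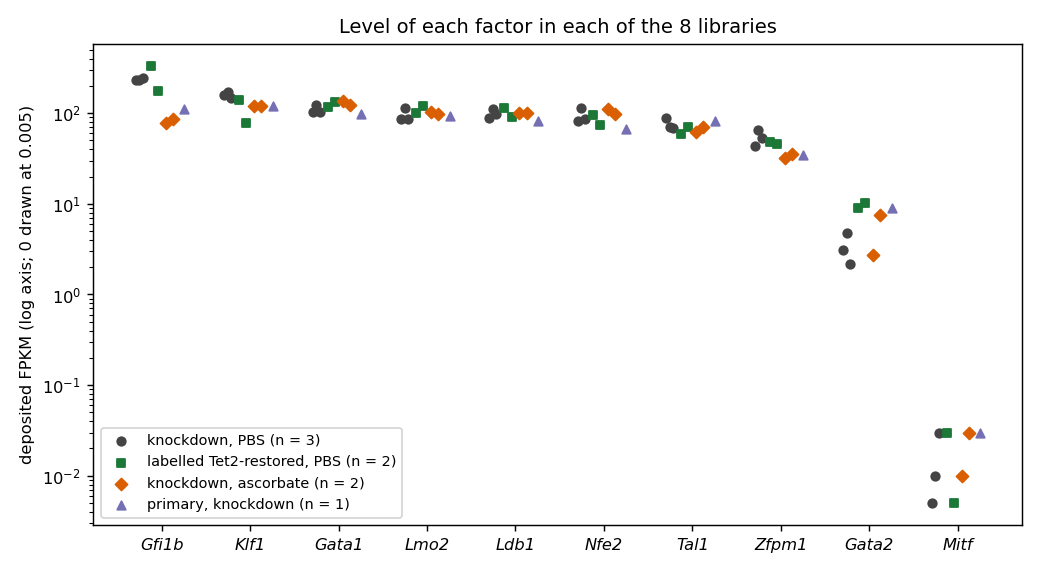
Deposited FPKM (log axis) of the 10 factors in the 8 libraries, 1 point a mouse, by group. Gfi1b leads in the knockdown mice and is lower in the ascorbate mice, Gata2 lies below all others but Mitf, and Mitf is at or near 0 (values of 0 are drawn at 0.005).

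The 10 genes were placed on GRCm38 with the GENCODE annotation. Gfi1b lies on chromosome 2 (28609450 to 28621982, minus strand), Gata2 on chromosome 6 (88193891 to 88207032, plus strand), Zfpm1 on chromosome 8 (122282141 to 122337251, plus strand) and Klf1 on chromosome 8 (84901928 to 84905291, plus strand). Gata1 is X-linked (7959260 to 7978071, minus strand). Ldb1 was the only member to share exonic bases with another annotated gene, 177 bases with the antisense gene Pprc1. Without a stated strand setting, reads of Ldb1 and Pprc1 in those bases cannot be told apart.

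Gfi1b, a zinc-finger repressor needed for erythroid and megakaryocytic development, was the member with the clearest difference. Its level was 425, 432 and 445 CPM in knockdown mice 16, 17 and 19, and 146 and 161 CPM in ascorbate mice 28 and 30. The ascorbate mice thus lay far below the narrow range of the knockdown mice. Gfi1b fell 2.85-fold under ascorbate, a log2 fold change of −1.51 (SE 0.24, edgeR adjusted p 0.0272). It was the 1 of 9 tested members to pass in this comparison, where 2.86% of 12137 genes passed; 2 members, Gfi1b and Zfpm1, had an unadjusted p under 0.05, as did 23.6% of genes. In rank by FPKM, Gfi1b was the highest of the 10 factors in all 5 PBS-treated secondary mice and the sixth in both ascorbate mice.

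The Gfi1b call changed with the libraries in the fit. The log2 fold change stayed between −1.59 and −1.43 when any of the 7 libraries was left out, but the adjusted p rose to 0.0978, 0.0518 and 0.0629 without mouse 16, 17 or 19 and to 0.140 and 0.126 without mouse 28 or 30. It was 0.00438 and 0.00548 without mouse 21 or 23, and the cause of these moves was not tested. With an offset for transcript length it was −1.65 (adjusted p 0.0242). The mitochondrial share was 17.1% in mouse 28, 9.73% in mouse 30 and 9.09% to 11.4% in the knockdown mice, and its part in the Gfi1b level was not tested. Marker levels of other cells moved beside it: the summed level of 16 splenic macrophage markers was 121 to 141 CPM in knockdown and 46.6 to 50.4 CPM in ascorbate mice. The single gene Slc40a1 gave 41.6 to 90.6 CPM of this in knockdown and 17.5 and 21.1 CPM in ascorbate mice. The part of these markers in the result was not tested. Of 25 erythroid markers tested, 21 had negative estimates under ascorbate (median −0.41 against −0.012 over all genes) and 0 passed, while their summed level, to which the globin Hbb-bs alone gave 3518 to 9370 CPM in the knockdown mice, overlapped at 11987 to 22580 CPM in knockdown and 13392 to 17865 CPM in ascorbate mice. In bulk RNA, fewer cells of a type and less RNA per cell cannot be told apart.

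Off doxycycline, Gfi1b split by mouse. Mouse 21 had 627 CPM, the highest of the 8 libraries, and mouse 23 had 328 CPM, below each knockdown mouse. The group mean of 477 ± 211 CPM (SD, n = 2) gave a log2 fold change of 0.14 (SE 0.23, adjusted p 0.719), which was 0.52 without mouse 23 and −0.40 without mouse 21. Neither value passed. Set directly against each other, the labelled restored mice stood above the ascorbate mice without overlap. Ranges were separate for 5 of 9 members here (4 higher, 1 lower), against 44.8% of all tested genes (22.8% higher, 22.1% lower). The log2 fold change of Gfi1b was 1.65 (SE 0.26, edgeR adjusted p 0.0875, DESeq2 adjusted p 1.26e-06). Without mouse 23 the log2 fold change of Gfi1b was 2.03. The primary mouse, labelled with no ascorbate, had 202.5 CPM, nearer to the ascorbate mice than to the knockdown mice (log2 fold change −1.10, SE 0.31, edgeR adjusted p 0.274, DESeq2 adjusted p 0.0252). Mice 12 and 23, neither of them labelled as given ascorbate, were thus also below all 3 knockdown mice. Over 8882 genes, the difference of a library from the knockdown mean followed transcript length. Spearman's rho was −0.51 in mouse 21, −0.27 in mouse 23, and 0.47, −0.45 and −0.076 in mice 16, 17 and 19. With an offset for transcript length, the log2 fold change of Gfi1b off doxycycline was −0.088.

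**Figure D2:**
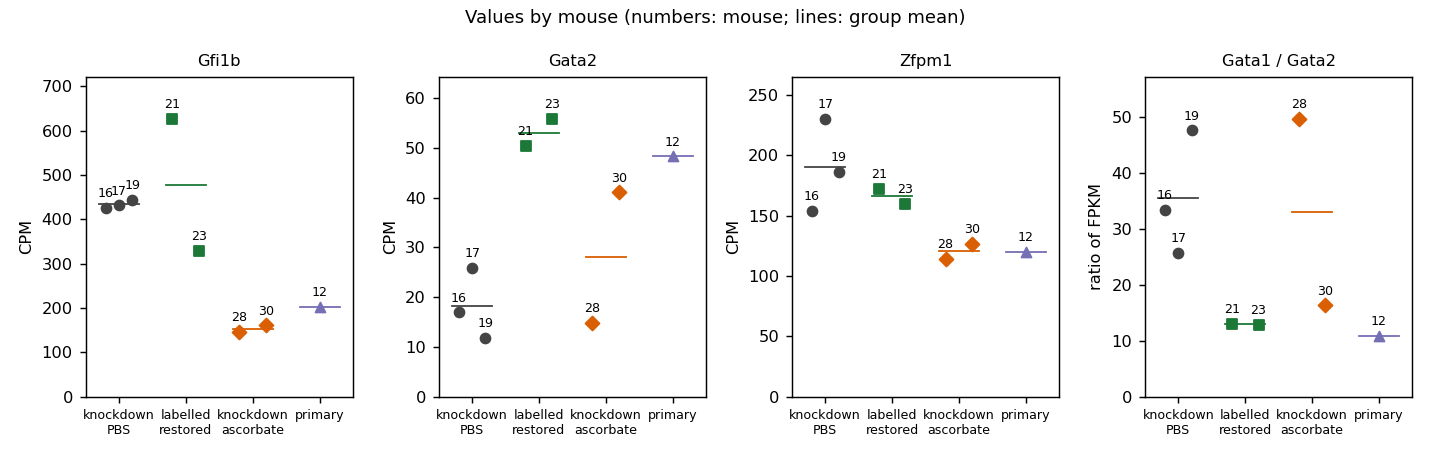
CPM of Gfi1b, Gata2 and Zfpm1 and the within-library FPKM ratio of Gata1 to Gata2, 1 numbered point a mouse with a line at each group mean; all axes start at 0. Gfi1b is at 146 and 161 CPM in ascorbate mice against 425 to 445 CPM in knockdown mice, and the mice labelled Tet2 restored lie on either side of the knockdown mice.

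Sequence upstream of the start was taken from RefSeq (GRCm38.p6) for Gfi1b, Zfpm1 and Gata2, the 3 members that passed with edgeR or DESeq2 in at least 1 comparison. Each stretch is the 250 bases before the start on the gene's strand: Gfi1b at chr2:28621983-28622232 (minus), Zfpm1 at chr8:122281891-122282140 (plus) and the outer of 2 Gata2 starts at chr6:88193641-88193890 (plus). Capitals mark matches, on either strand, to GATA hexamers (AGATAA or AGATAG or TGATAA or TGATAG) and to a GFI core (AAATCA). They also mark a set of CACCC boxes and GC-rich variants for KLF factors (CCACACCC or CCACGCCC or CCCCACCC or CCCCGCCC).
Gfi1b: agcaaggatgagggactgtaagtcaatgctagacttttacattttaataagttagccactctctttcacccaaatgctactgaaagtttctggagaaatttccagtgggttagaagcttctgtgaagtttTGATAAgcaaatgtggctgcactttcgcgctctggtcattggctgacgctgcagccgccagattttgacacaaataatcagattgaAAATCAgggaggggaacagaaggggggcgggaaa
Zfpm1: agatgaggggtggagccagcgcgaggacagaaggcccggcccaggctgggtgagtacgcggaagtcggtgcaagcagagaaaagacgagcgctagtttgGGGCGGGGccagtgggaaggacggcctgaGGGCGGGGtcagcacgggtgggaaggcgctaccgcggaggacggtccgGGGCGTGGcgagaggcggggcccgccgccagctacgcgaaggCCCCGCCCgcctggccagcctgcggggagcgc
Gata2: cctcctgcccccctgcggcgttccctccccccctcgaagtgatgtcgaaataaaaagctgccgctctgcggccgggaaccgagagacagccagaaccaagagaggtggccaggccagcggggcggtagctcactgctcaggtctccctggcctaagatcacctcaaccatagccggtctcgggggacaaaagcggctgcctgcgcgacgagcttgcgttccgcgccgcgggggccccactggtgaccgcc

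The Gfi1b window held 1 GATA hexamer, from −120 to −115 before the start, and 1 GFI core, from −34 to −29. A GATA hexamer occurred in 26.5% and the GFI core in 12.4% of all 32851 windows of this length. The Zfpm1 window held 4 matches to the CACCC box set, which was found in 27.4% of windows, and no GATA hexamer or GFI core. These matches read GGGCGGGG, GGGCGTGG or CCCCGCCC, GC-rich variants without the letters CACCC on either strand. Neither Gata2 window held any of the 3 motifs. Among the other members, GATA hexamers were found in the Klf1 window, in 1 of 2 Tal1 windows, 1 of 3 Ldb1 windows and 2 of 3 Mitf windows. For the Tal1 and Ldb1 windows with these hexamers, and for 1 more Ldb1 window, the bases after the start were not found in a GENCODE transcript of the gene, so these starts are uncertain. Matches to the CACCC box set were found in the Gata1 window (CCCCACCC) and in 1 window each of Tal1 and Ldb1 (GGGCGGGG in each). E-boxes were found in 1 window each of Klf1, Ldb1 and Mitf. The E-box pattern CAGNTG occurred in 44.8% of windows. Windows were found for 8 of the 10 members, not for Lmo2 and Nfe2. These matches describe letters only.

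Gata2, the GATA factor of stem cells, early progenitors and mast cells, was low in knockdown mice and higher off doxycycline. Its level was 16.9, 25.9 and 11.9 CPM in mice 16, 17 and 19 and 50.4 and 55.9 CPM in mice 21 and 23. The groups did not overlap. The log2 fold change of 1.54 (SE 0.42) corresponds to 2.91-fold and did not pass with edgeR (adjusted p 0.0696), while it passed with DESeq2 (adjusted p 0.00196). It was between 1.31 and 1.87 with any library left out. No gene passed with edgeR here (0% of 12137 genes, against 29.2% at an unadjusted p under 0.05 and 16.1% with DESeq2), so 0 of 9 tested members did. The smallest edgeR adjusted p of any gene was 0.0502, so 0 calls in a list of genes were fixed in this comparison. Non-overlapping ranges were found for 2 of 9 members, Gata2 (higher) and Klf1 (lower), against 49.4% of all tested genes.

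Under ascorbate, Gata2 differed between the mice of the group. Mouse 28, with 14.9 CPM, lay inside the knockdown range and mouse 30, with 41.1 CPM, above it, and the log2 fold change of 0.62 (SE 0.43, adjusted p 0.406) was −0.31 without mouse 30 and 1.17 without mouse 28. The primary mouse had 48.3 CPM (log2 fold change 1.40, SE 0.52, adjusted p 0.456), close to the mice off doxycycline. Levels above the 3 knockdown mice were thus seen in 4 libraries: those of mice 12, 21, 23 and 30.

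Gata1, the GATA factor of maturing erythroid cells, megakaryocytes and mast cells, varied little. It ran from 236 CPM in the primary mouse to 335 CPM in mouse 28, a ratio of 1.42. Knockdown mice had 270.3 ± 26.2 CPM (SD, n = 3), labelled restored mice 309.6 ± 20.3 (n = 2) and ascorbate mice 319 ± 22.5 (n = 2). The log2 fold change was 0.20 off doxycycline (2-SE interval −0.089 to 0.48, adjusted p 0.382) and 0.23 under ascorbate (2-SE interval −0.056 to 0.51, adjusted p 0.354). The ratio of Gata1 to Gata2, taken within each library on the FPKM scale, was 33.3, 25.6 and 47.6 in the knockdown mice. It was 12.98 in mouse 21, 12.8 in mouse 23, 49.6 in mouse 28, 16.3 in mouse 30 and 10.8 in mouse 12. Gata1 exceeded Gata2 at least 10.8-fold in every library, and the spread of the ratio followed Gata2, whose highest level was 4.69 times its lowest.

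Tal1, together with Lmo2 and Ldb1, whose products bridge the DNA-binding factors, gave no call in any of the 4 comparisons. Tal1 was at 333 ± 50.7 CPM in knockdown (n = 3), 290.4 ± 33.5 in labelled restored (n = 2) and 294 ± 27.3 in ascorbate mice (n = 2), with log2 fold changes of −0.20 (SE 0.17) and −0.19 (SE 0.17). Lmo2 had 208 ± 34.1, 244 ± 24.9 and 220.2 ± 6.23 CPM in the same order, and Ldb1 357 ± 42.4, 374 ± 60.7 and 365 ± 3.25 CPM. Their log2 fold changes were 0.23 and 0.076 for Lmo2 and 0.067 and 0.022 for Ldb1 (adjusted p from 0.362 to 0.944). The 2-SE interval of Ldb1 under ascorbate was −0.29 to 0.34. Over the 8 libraries the highest level of these genes was 1.47 (Tal1), 1.40 (Lmo2) and 1.44 (Ldb1) times the lowest.

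Zfpm1, which encodes the GATA cofactor FOG1, was lower under ascorbate. It was at 154, 230.2 and 186 CPM in mice 16, 17 and 19, and at 114 and 127 CPM in mice 28 and 30. The groups did not overlap, though the knockdown mice spread widely. The log2 fold change of −0.67 (SE 0.18) missed the threshold with edgeR (adjusted p 0.0795). It passed with DESeq2 (adjusted p 0.0164), where 11% of genes passed, and with limma voom (adjusted p 0.0405), where 1011 of 12137 genes passed. The mice labelled Tet2 restored had 172 and 159.5 CPM, within the knockdown range (−0.20, SE 0.18, adjusted p 0.489). The primary mouse, at 119.7 CPM, was again close to the ascorbate mice (−0.67, SE 0.24, adjusted p 0.408). Under ascorbate 4 of 9 members had ranges separate from knockdown, against 45.9% of all tested genes: Gfi1b, Zfpm1 and Klf1 were lower (23.5% of genes) and Gata1 was higher (22.4%).

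Klf1, the zinc-finger activator of erythroid genes, was at 247, 263 and 227 CPM in knockdown mice 16, 17 and 19. Mice 21 and 23 had 223 and 119 CPM, mice 28 and 30 had 184 and 187 CPM, and the primary mouse had 184 CPM. All 5 libraries outside the knockdown group were lower, mouse 21 only just, and the share of all genes with this pattern was not counted. The log2 fold change was −0.52 off doxycycline (SE 0.23, adjusted p 0.169) and −0.41 under ascorbate (SE 0.23, adjusted p 0.309). Off doxycycline it depended on mouse 23, being −1.04 without mouse 21 and −0.15 without mouse 23. Each of these fits leaves 1 library in the labelled restored group. Mouse 23 also had a mitochondrial share of 14.5%, against 9.49% in mouse 21, and the part of this difference was not tested.

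Nfe2, the blood-restricted subunit of the factor NF-E2, was at 286 ± 54.6 CPM in knockdown, 259 ± 49.9 in labelled restored and 317 ± 23.1 in ascorbate mice. The log2 fold change was −0.15 off doxycycline (SE 0.19, adjusted p 0.624) and 0.14 under ascorbate (SE 0.19, adjusted p 0.675). The primary mouse had 197 CPM, the lowest of the 8 libraries (−0.54, SE 0.25, adjusted p 0.558).

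Mitf, the helix-loop-helix leucine zipper factor of mast cells and melanocytes, was at or near 0. Its counts were 0, 1 and 5 for the knockdown mice, 5 (mouse 21) and 0 (mouse 23) off doxycycline, 1 (mouse 28) and 4 (mouse 30) under ascorbate, and 6 for the primary mouse. The limit that goes with a count of 0 is 0.121 CPM for mouse 16 and 0.152 CPM for mouse 23, and the other 6 libraries did not exceed 0.206 CPM. Mitf failed the filter on low counts and was not tested. Its relatives Tfeb and Tfec were also low, at 0.12 to 0.61 FPKM and 0 to 0.07 FPKM, and Tfe3 was at 6.77 to 12.9 FPKM. Mast cell genes were present in the same libraries: Ms4a2, which encodes the IgE receptor's beta chain, was at 53.6 to 248 FPKM.

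**Figure D3:**
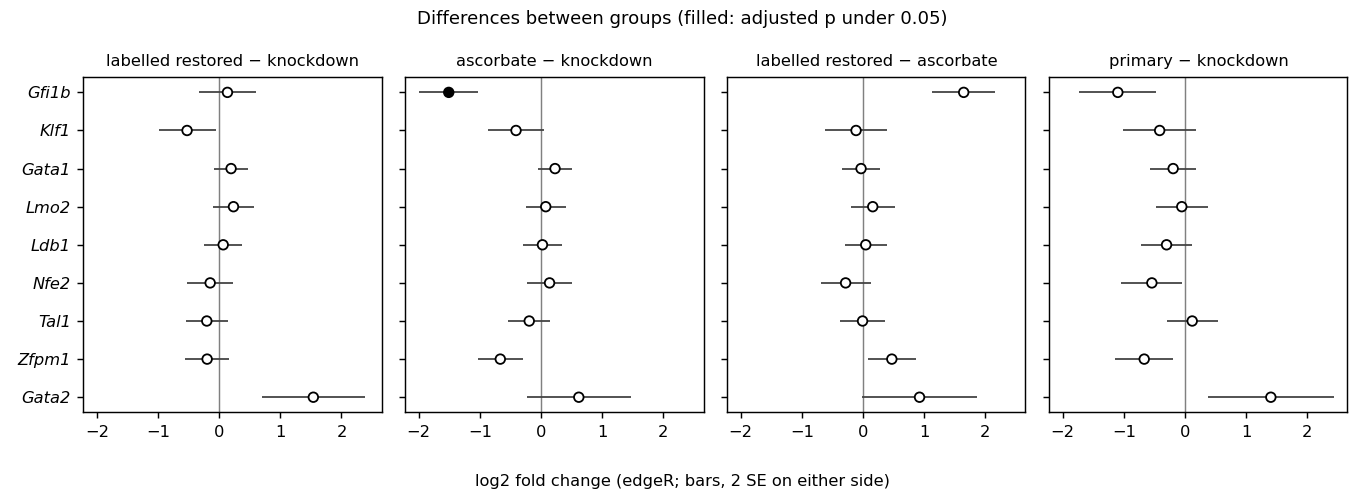
Log2 fold change of the 9 tested members in 4 comparisons (points; bars, 2 SE on either side; filled where the adjusted p is under 0.05). Only Gfi1b under ascorbate, at −1.51, is filled; Gata2 off doxycycline, at 1.54, and Gfi1b between the labelled restored and ascorbate mice, at 1.65, are open.

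In sum over members, 5 had positive and 4 negative log2 fold changes for the label Tet2 restored, with a median of 0.067 against −0.0020 over all tested genes. Under ascorbate the numbers were the same and the median was 0.022 against −0.012. These comparisons share the 3 knockdown libraries. Between the labelled restored and ascorbate mice 0 of 9 members passed with edgeR (0.00824% of genes passed, 16.2% at an unadjusted p under 0.05) and 1, Gfi1b, with DESeq2 (3.66%). In the primary mouse 0 of 9 passed with edgeR (0.115% of 13024 genes, 0.0691% higher and 0.0461% lower; 9.08% unadjusted) and 1, Gfi1b, with DESeq2 (1.7%); the spread of this single library was taken from the other groups. Its level lay outside the knockdown range for 7 of 9 members, 1 higher (Gata2) and 6 lower, against 61.6% of genes, 31.8% higher and 29.7% lower. At an unadjusted p under 0.05 the members numbered 2, 2, 2 and 3 in the 4 comparisons.

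**Figure D4:**
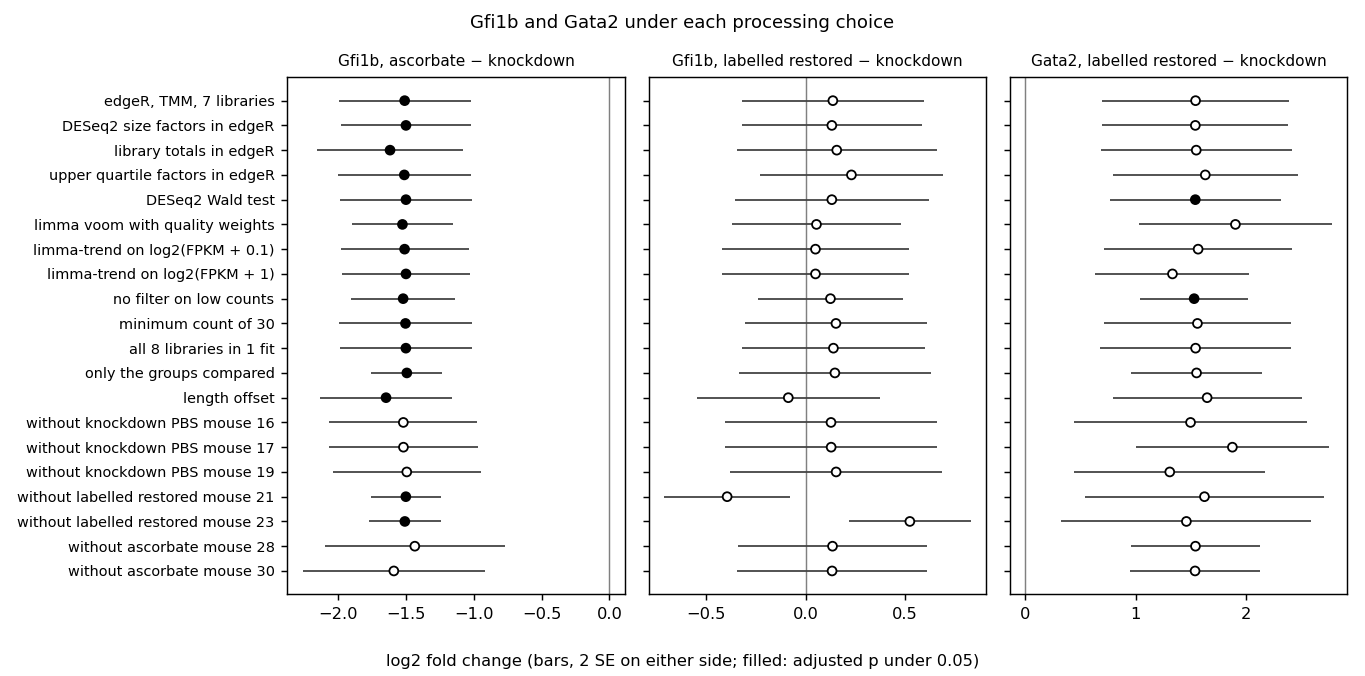
Log2 fold change of Gfi1b and Gata2 under each processing choice and with each library left out (points; bars, 2 SE; filled where the adjusted p is under 0.05). Gfi1b under ascorbate stays between −1.65 and −1.43, and off doxycycline it is −0.40 without mouse 21 and 0.52 without mouse 23.

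The other genes of the network were described from lists. Of 13 partners of the LDB1 complex 12 were tested, and under ascorbate 1 fell and 0 rose (1.77% of all genes fell and 1.09% rose), with a median of 0.24 against −0.012 over all genes. The gene that fell was Cbfa2t3, a corepressor of the ETO family that binds the TAL1 complex. It was at 122, 126 and 127 CPM in mice 16, 17 and 19 and 67.4 and 55.1 CPM in mice 28 and 30 (−1.04, SE 0.19, edgeR adjusted p 0.0338). Mice 21 and 23 had 114 and 78.1 CPM, lower in both but not called. Lyl1, a close relative of Tal1, had 97.2, 149 and 119 CPM in knockdown and 38.9 and 51.4 CPM in ascorbate mice (−1.43, SE 0.39, adjusted p 0.0856). On the FPKM scale the ratio of Tal1 to Lyl1 was 0.852 to 1.66 in knockdown mice and 2.90 and 2.50 in mice 28 and 30, and it was 0.731 in mouse 21 and 2.32 in mouse 23. The ETS factor Fli1 had a value of 0.58 (SE 0.16, adjusted p 0.0765).

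Off doxycycline 0 of these 12 partners passed, as did 0% of all genes (median of the partners 0.078). The smallest p belonged to Ssbp2, an LDB1-binding protein (−2.05, SE 0.64, adjusted p 0.0839), Runx1 (0.42, SE 0.14, adjusted p 0.0940) and Fli1 (0.36, SE 0.16, adjusted p 0.160). Ssbp2 was at 4.27 to 13.1 CPM in knockdown mice and at 2.93 and 0.859 CPM in mice 21 and 23.

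Corepressors of GFI1B and FOG1 (LSD1, CoREST and NuRD subunits, 14 of 15 tested) gave 0 calls in either arm. Of all genes, 0% passed off doxycycline and 2.86% under ascorbate. Off doxycycline 10 of 14 corepressors had negative estimates with a median of −0.16. Chd4, the NuRD helicase, Rcor1, the CoREST scaffold, and Kdm1a, which encodes LSD1, had values of −0.55 (SE 0.16), −0.56 (SE 0.20) and −0.57 (SE 0.25) with adjusted p of 0.0755, 0.103 and 0.164. Under ascorbate 11 of 14 were positive with a median of 0.050. The smallest p there belonged to Gatad2b (0.55, SE 0.21, adjusted p 0.154), Mbd3 (0.36, SE 0.17) and Mta1 (0.25, SE 0.14).

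Relatives of the members (14 of 20 tested) gave 0 calls in either arm as well, with medians of −0.026 and 0.26. Off doxycycline Klf10 was at −1.23 (SE 0.36, adjusted p 0.0737), Klf3 at −0.75 (SE 0.22, adjusted p 0.0742) and Klf6 at 0.46 (SE 0.22, adjusted p 0.191), and Tfe3, Klf6 and Maff had 0.64 (SE 0.17, adjusted p 0.0716), 0.74 (SE 0.22) and 1.72 (SE 0.58) under ascorbate. Gfi1, the granulocytic counterpart of Gfi1b, was listed at no more than 0.04 FPKM in any library, so Gfi1b made up nearly all of the pair's transcripts, in the ascorbate mice too.

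**Figure D5:**
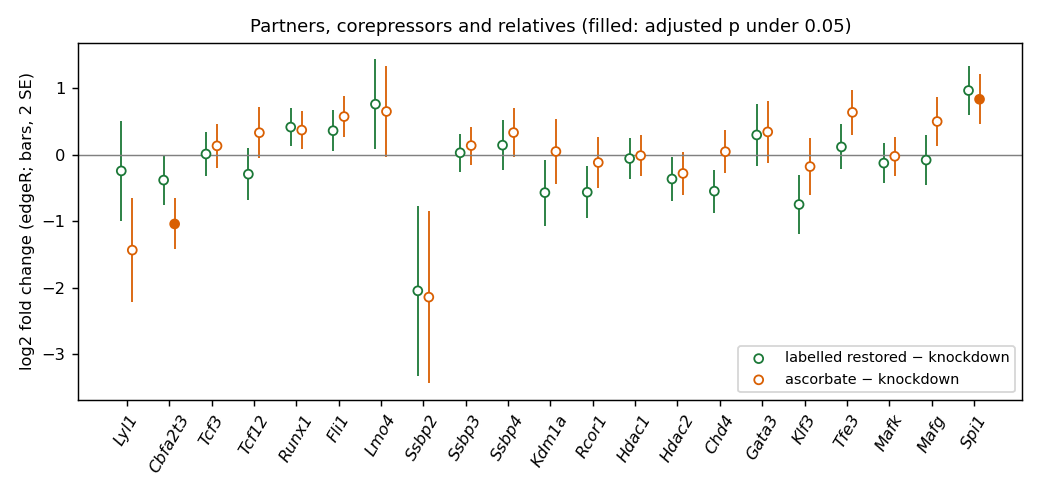
Log2 fold change of selected partners, corepressors and relatives against the shared knockdown mice (green, labelled restored; orange, ascorbate; bars, 2 SE; filled where the adjusted p is under 0.05). Cbfa2t3 at −1.04 and Spi1 at 0.84, both under ascorbate, are the filled points. Spi1, the last gene plotted, comes from the separate list of genes described as repressed by GFI1B or GFI1.

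Among 9 genes described as repressed by GFI1B or GFI1, 7 were tested. Under ascorbate 1 rose (1.09% of all genes did), the myeloid factor Spi1 (PU.1), which opposes GATA1 in lineage choice (0.84, SE 0.19, edgeR adjusted p 0.0477). The median of the 7 was 0.35, and Rgs18 and Bcl2l1 had 0.65 (SE 0.27, adjusted p 0.187) and −0.39 (SE 0.19, adjusted p 0.244). Off doxycycline, Gfi1b lay above the knockdown range in mouse 21 and below it in mouse 23. All 7 tested genes of the list had positive estimates there (median 0.48) and 0 passed. Over all tested genes, 50.2% had negative estimates and 0% passed in this comparison. Spi1 had 0.97 (SE 0.19, adjusted p 0.0502), Bcl2l1 0.48 (SE 0.18) and Rgs18 0.59 (SE 0.27). Whether the genes of this list followed the Gfi1b level was not tested in either arm. The ratio of Gata1 to Spi1 in FPKM was 4.37, 3.59 and 3.32 in the knockdown mice. It was 2.35 in mouse 21, 2.02 in mouse 23, 2.43 in mice 28 and 30 alike, and 4.38 in mouse 12. It was lower in all 4 mice of the labelled restored and ascorbate groups than in the knockdown mice, which both groups share as comparison.

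Erythroid markers include many targets of GATA1 and KLF1. Of 25 tested, 0 were called in either arm, against 0% of all genes off doxycycline and 2.86% under ascorbate. Estimates were negative for 20 off doxycycline (median −0.69) and 21 under ascorbate (median −0.41). The blood group protein Ermap was at 681, 506 and 496 CPM in knockdown mice and 341 and 213 CPM off doxycycline (−1.02, SE 0.23, adjusted p 0.0520), while for the membrane skeleton genes the value was −1.14 in Sptb (SE 0.27, adjusted p 0.0546) and −1.17 in Ank1 (SE 0.31, adjusted p 0.0659). Under ascorbate the 3 smallest p belonged to Epb42, Ermap and Sptb, with values of −1.68 (SE 0.64), −0.55 (SE 0.22) and −0.60 (SE 0.26). Mouse 23 had the lowest Ermap, Sptb, Ank1 and Klf1 of the 8 libraries.

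Megakaryocyte markers were mostly absent: 8 of 19 were tested, and between 4 and 8 of the 19 had a count of 0 in each library. The glycoproteins Gp1ba and Gp5 carried much of their summed level, which was 256 to 297 CPM in knockdown and 196 to 218 CPM in ascorbate mice. Gp1ba, a chain of the von Willebrand factor receptor, fell under ascorbate from 54.9, 62.8 and 58.8 CPM to 31.2 and 28.9 CPM (−0.98, SE 0.16, edgeR adjusted p 0.0291), the 1 of 8 to pass (1.77% of all genes fell), and Gp5 had −0.72 (SE 0.18, adjusted p 0.0663). Itga2b, the classical lineage integrin, was at 0.10 to 0.58 FPKM. Off doxycycline 0 of 8 passed (median 0.25), with the smallest p in F2rl2 (1.16, SE 0.32), Nrgn (−0.89, SE 0.28) and Itga2b (1.151, SE 0.51).

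Mast cell and basophil markers had 14 of 18 tested. Off doxycycline, where Gata2 was higher without overlap, 12 of 14 had positive estimates (median 1.04) and 0 passed. Fcer1a, Itgb7 and Hdc had values of 2.53 (SE 0.32), 0.99 (SE 0.17) and 1.09 (SE 0.23), each with an adjusted p of 0.0502, the smallest of any gene in this comparison. Under ascorbate 2 of 14 rose, where 1.09% of all genes did, the chymase Cma1 (1.38, SE 0.28, edgeR adjusted p 0.0408) and the cytokine Il4 (0.93, SE 0.20, edgeR adjusted p 0.0448), and Fcer1a had 1.29 (SE 0.31, adjusted p 0.0614). Il4 was at 7.83 to 8.70 CPM in knockdown mice and at 16.3 and 15.6 CPM in mice 28 and 30. A link of these genes to the Gata2 level was not tested.

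Other cells of the spleen gave low levels. The 16 macrophage markers summed to 121 to 141 CPM in knockdown, 18.2 to 58.7 CPM in labelled restored, 46.6 to 50.4 CPM in ascorbate mice and 83.5 CPM in the primary mouse. Slc40a1 alone gave 41.6 to 90.6 CPM of the sum in knockdown mice and 56.3 CPM in the primary mouse. Under ascorbate 3 of 14 tested fell, against 1.77% of all genes: Vcam1, Mertk and Mrc1 (−2.92, −3.01 and −2.35; SE 0.43, 0.59 and 0.53). Off doxycycline 0 passed, with Vcam1, Hmox1 and Mertk at −2.97, −1.82 and −2.69 (SE 0.43, 0.35 and 0.56). The 14 neutrophil markers summed to 4.52 to 14.9 CPM in knockdown, 15.1 to 22.7 CPM off doxycycline and 17.3 to 23.4 CPM under ascorbate, and to 56.1 CPM in the primary mouse, the highest of the 8 libraries. Under ascorbate Prtn3 was the 1 of 10 tested to rise (1.09% of all genes rose; 1.66, SE 0.32, edgeR adjusted p 0.0356; 1.55, SE 0.32, adjusted p 0.0502 off doxycycline). The 16 B and T cell markers summed to 34.8 to 38.5, 17.0 to 33.7 and 21.1 to 31.0 CPM in the same 3 groups, and the 10 endothelial and stromal markers to at most 8.82 CPM, with 0 calls in both lists. Their part in the differences of the members was not tested.

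Likeness of pattern was taken as Pearson's r of log2 CPM over the 8 libraries, among 8882 genes with a mean of at least 5 CPM, and is given as a description because the points share libraries and depth. The genes most like Gfi1b were Zfp316 (r = 0.95), Prox2 (0.95), Leng1 (0.95), Magohb (0.95) and 4933404O12Rik (0.94). Zfp316 was at 19.0, 21.6 and 20.9 CPM in mice 16, 17 and 19 and at 11.5 and 9.995 CPM in mice 28 and 30. The genes most like Gata2 were Ube2e1 (0.94), Dnmt3b (0.90), H2afz (0.88), Ostc (0.88) and 9430015G10Rik (0.87). Of these, Dnmt3b, a DNA methyltransferase, was at 19.3 to 22.1 CPM in knockdown mice and 18.3 CPM in mouse 28. It was at 23.7 to 28.1 CPM in mice 12, 21, 23 and 30. These genes were selected for their likeness over the same libraries. A pattern shared with Gfi1b or Gata2 was therefore fixed by the choice and is no separate observation.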

How the data were processed

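Members and lists were chosen with earlier results of these data known, and label-check genes after their values were seen. Raw counts, with 1 line per gene symbol, and FPKM values with at most 2 decimals were deposited by the authors, as the files show. STAR, featureCounts and DESeq2 with mm10 (GRCm38) are named in the submitters' processing notes; versions, strand and annotation are not given in the sources used here. Messenger RNA was enriched with oligo-dT beads, per the labels' protocols.

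Tests were run with edgeR 4.0.16 in R 4.3.3 (robust quasi-likelihood, TMM factors, filterByExpr with a minimum count of 10, Benjamini-Hochberg adjustment over all tested genes, threshold 0.05). The 7 secondary libraries were fitted in 3 groups, and all 8 for the primary mouse. SE is that of the log2 fold change; CPM uses TMM-scaled totals; the limit at a count of 0 is 3 counts and covers counting error only. Likeness used log2(CPM + 0.5). Transcript length was recovered from count and FPKM. The fit was tested on simulated counts.

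Alternatives were other scaling factors, DESeq2 1.42.0, limma 3.58.1 (voom with quality weights; trend on log2(FPKM + 0.1) and log2(FPKM + 1), at least 1 FPKM in 2 libraries), no filter or a minimum count of 30, other sets of libraries, a length offset and each library left out. Named genes are the 10 members, Tet2, up to 3 genes with the smallest p from each of 11 lists in the labelled restored and ascorbate comparisons, and the 5 genes most like Gfi1b and Gata2; others named were chosen after their values were seen.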

Additional observations from a re-analysis of the deposited data

How the results depend on the processing

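With 2 or 3 mice a group, calls moved with the setting; the cause was not tested. The number of members past the threshold was 0, 1, 0 and 0 for labelled restored against knockdown, ascorbate against knockdown, labelled restored against ascorbate, and primary against knockdown. With DESeq2 it was 1, 2, 1 and 1, where 1951, 1339 and 444 of 12137 genes and 222 of 13024 passed. Without a filter it was 2, 2, 2 and 2, where 2207, 1498 and 582 of 22734 genes and 467 of 23473 passed. With limma voom it was 2 under ascorbate (1011 of 12137 genes passed) and 1 for the primary mouse (272 of 13024). Leaving out a library gave 0 to 1, 0 to 1, 0 to 1 and 0. Over all genes the calls in the same order, 0, 347, 1 and 15, ran from 0 to 2207, 222 to 1498, 0 to 582 and 10 to 467 over the other settings, and from 0 to 1692, 2 to 796, 0 to 5 and 6 to 45 with a library left out. On library totals 83 of 383 ascorbate calls were higher, against 132 of 347; that scaling moved the median of all genes to −0.12 under ascorbate and to 0.13 between the arms, where upper quartile factors moved it to 0.11.

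Of 675 values of single members under alternatives, 27 changed sign, 0 of them past the threshold. With the length offset these were Gfi1b (−0.088) off doxycycline, Lmo2 (−0.029) under ascorbate, Tal1 (0.011) between the arms and Lmo2 (0.071) in the primary mouse. On library totals they were Lmo2 (−0.035) and Ldb1 (−0.088) under ascorbate and Gata1 (0.084), Tal1 (0.10) and Klf1 (0.014) between the arms. Upper quartile factors gave Gata1 0.058 and Tal1 0.086 between the arms, a minimum count of 30 gave Tal1 0.0020, and limma voom gave Lmo2 0.021 in the primary mouse. With a library left out, Gfi1b ran from −0.40 to 0.52, Ldb1 from −0.10 to 0.22 and Nfe2 from −0.35 to 0.032 off doxycycline. Under ascorbate Gata2 ran from −0.31 to 1.17 and Ldb1 from −0.055 to 0.11. Between the arms Gata1 ran from −0.11 to 0.033, Tal1 from −0.14 to 0.10, Ldb1 from −0.13 to 0.19 and Klf1 from −0.64 to 0.26. Lmo2 ran from −0.088 to 0.089 in the primary mouse. The primary comparison could not be fitted without its lone library. No paired analysis was possible because the groups share no mouse numbers.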

Other observations

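Gata3, best known from T cells, was picked after its values had been seen and lay between Gata1 and Gata2. It was at 19.8, 12.3 and 21.5 FPKM in mice 16, 17 and 19, 23.0 and 20.5 FPKM in mice 21 and 23, 20.4 and 24.99 FPKM in mice 28 and 30, and 21.4 FPKM in mouse 12, in libraries whose 16 B and T cell markers summed to no more than 86.1 CPM. Its log2 fold changes were 0.30 and 0.35 for the label Tet2 restored and ascorbate, and neither passed. Cpa3, the mast cell carboxypeptidase, was picked after its values had been seen: it was at 6.85 to 16.0 FPKM in the knockdown mice, 65.4 and 29.2 FPKM in mice 21 and 23, 28.8 and 76.2 FPKM in mice 28 and 30, and 132 FPKM in mouse 12. All 5 libraries outside the knockdown group were higher, but the share of all genes with this pattern was not counted. Of 14 mast cell and basophil markers tested, 12 had positive estimates off doxycycline and 10 under ascorbate. Kit and Il1rl1 had negative estimates in both. A link of Cpa3 to the Gata2 level was not tested.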
